A study of Rattus norvegicus with 16 samples.

Results

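The genes described are 39 interferon-stimulated genes of the rat, chosen by symbol from the families that type I and type II interferons are known to induce. A gene was measured where a probe of the array carried a RefSeq transcript of that symbol, and where several probes did, the brightest probe in the tissue was used. In this way 37 of the 39 genes were measured, by 44 probes in all, out of 16678 gene symbols and 45598 rat probes. Herc6, a ubiquitin ligase that attaches ISG15 to proteins in mice, and Xaf1, an interferon-induced promoter of apoptosis, had no probe named in this way and were not measured. The 7 genes with more than 1 probe were Eif2ak2, Ifi44, Irf9, Oas1a, Rsad2, Tap1 and Tap2.

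Lungs and adipose tissue came from the same 8 male Brown Norway rats in a model of allergic asthma. The labels give an age of 7 weeks, which the study lists for the rats it sensitized, and tissue was taken after the weeks of treatment. The 5 HDM rats were given 45 µg of house dust mite with an aluminium hydroxide adjuvant under the skin once a week for 3 weeks, and then 120 µg into the nose, 3 times a week for 3 weeks. The 3 control rats received saline on both routes and also the adjuvant, so the comparison is of allergen and not of adjuvant. The adipose depot is not named in the labels, and 1 array per rat and tissue was hybridized with 50 ng of RNA. Tissue was taken whole, so a larger number of cells of a type and more RNA per cell cannot be told apart.

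Interferons are secreted proteins released when cells sense viral nucleic acids or, for interferon gamma, mainly by T cells and natural killer cells. Type I and type III interferons act mainly on promoters that hold the interferon-stimulated response element, to which Irf9 binds, whereas interferon gamma acts mainly through the gamma-activated site. In airways the induced genes are best known from virus infection, in which they block viral replication, present antigen on MHC class I molecules and attract T cells.

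The lung arrays were even, with a 75th percentile of the signal of 376 to 488 and 62.2% to 68.8% of probes well above background. In adipose tissue these values were 111 to 240 and 51% to 60.3%, and HDM rat 2 had 1224 outlier spots against 355 to 444 on the other adipose arrays. Arrays of the same group correlated at 0.980 to 0.990 in lung and at 0.912 to 0.984 in adipose tissue over all probes. The lung markers (Sftpc, Sftpb, Sftpa1, Scgb1a1, Ager and Cldn18) summed to 1358 to 1655 times the 75th percentile in lung and to 1.35 to 2.35 times in adipose tissue. The adipocyte markers (Adipoq, Plin1, Lep, Cidec, Fabp4 and Lipe) summed to 668 to 1340 times in adipose tissue. In adipose tissue, control rat 1 and HDM rat 1 stood apart from the others, with markers of epididymis and testis summing to 3388 and 2833 times the 75th percentile against 0.648 to 41.7 times in the other 6 rats. All 8 arrays of a tissue shared 1 slide, on which HDM rats 1 to 4 lay in row 1 and HDM rat 5 lay in row 2 with the 3 control rats.

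The promoters of many of these genes carry the response element. RefSeq gave a window from 250 bases before to 50 bases after the start for 31 of the 39 genes, on the GRCr8 assembly. Isg15, Usp18, Mx2, Oas2, Ifit1, Ifit2, Dhx58 and Rtp4 have no window in that table. The core of the response element, GAAA, any 2 bases and GAAA again, was searched on both strands and was found in 20 of the 31 windows (64.5%), against 1312 of all 33469 promoter windows (3.92%). The gamma-activated site, TTCNNNGAA, which reads alike on both strands, was found in 10 of the 31 (32.3%), against 2970 of all windows (8.87%). Of the 31 genes, 5 had both motifs and 6 had neither. The letters describe the windows and do not show that a factor was bound. The following 30-base windows belong to the genes on which the lung results turn, and to Oas1b, which is set beside Oas1a. Each is printed on the strand of its gene, with the motif in capitals. TTTC, any 2 bases and TTTC is the response element read from the other strand, and only Irf1 is shown with the gamma-activated site.
Ifit3: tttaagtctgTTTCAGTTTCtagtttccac
Gbp5: acttgtgtagTTTCAATTTCagtttagagg
Gbp2: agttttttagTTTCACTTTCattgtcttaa
Tap2: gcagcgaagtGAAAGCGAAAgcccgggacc
Psmb8: gtgctgtggcTTTCGCTTTCacttccttgt
Oas1a: cccctctcggGAAATGGAAActgaaaatct
Oas1b: cccttcccggGAAATGGAAActgaaaaccc
Oasl2: aaagctttggTTTCAGTTTCcaggcttgag
Irf7: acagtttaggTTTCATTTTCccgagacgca
Cxcl10: cgctttgGAAAGTGAAActtaactcactca
Irf1: acagcctgatTTCCCCGAAatgatgaggcg

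The windows lie on the plus strand at chr1:241527272-241527301 for Ifit3, with the motif at −44 to −35 from the start, at chr2:233910933-233910962 for Gbp5 and at chr2:234005686-234005715 for Gbp2. Those of Oas1a (chr12:41330415-41330444), Cxcl10 (chr14:15988816-15988845) and Irf1 (chr10:38417783-38417812) are on the plus strand as well. On the minus strand lie those of Tap2 (chr20:4652318-4652347), Psmb8 (chr20:4657016-4657045), Oas1b (chr12:41395892-41395921), Oasl2 (chr12:47383317-47383346) and Irf7 (chr1:205800073-205800102). In the paired genes Oas1a and Oas1b the motif occurs 2 times in an overlapping stretch, of which the first is in capitals. Both also hold TTCNNNGAA, at −199 to −191 from the start in Oas1a and at −213 to −205 in Oas1b. Several of the genes are neighbours in the rat genome. Ifit2, Ifit3 and Ifit1 lie within 4 coding genes of chromosome 1, Gbp5 and Gbp2 within 4 of chromosome 2, Cxcl11, Cxcl10 and Cxcl9 follow each other on chromosome 14, and Tap2, Psmb8, Tap1 and Psmb9 follow each other on chromosome 20.

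The first comparison asks whether these genes differed between the lungs of HDM rats and control rats. As a group they were slightly higher in HDM rats, and 2 of them, Ifit3 and Gbp5, were differentially expressed. Levels are log2 signals relative to the 75th percentile of the array, and differences are HDM rats minus control rats. Differential expression means an adjusted p below 0.05 in limma, Benjamini–Hochberg over all 45598 probes, and a fold change above 1.5. The difference was above 0 for 36 of the 37 genes, although this count was 31 when arrays were scaled to their median, 32 when they were scaled to Gapdh and Hprt1, and up to 37 with other scalings. The median difference was 0.24 on the log2 scale (interquartile range 0.13 to 0.53), against 0.00 over all probes and −0.01 over the 26673 probes well above background on all lung arrays, of which 47.6% were higher in HDM rats. The 2 differentially expressed genes are 5.41% of the 37, whereas 0.855% of all probes were differentially expressed and 0.482% were higher. In 13 of the 37 genes (35.1%) every HDM rat lay above every control rat, which was so for 4.65% of all probes and for 6.87% of those well above background. No gene showed the opposite, against 4.97% of all probes. With median scaling 8 of the 37 genes did not overlap. In 9.61% of all probes the groups did not overlap in either direction. An unadjusted p below 0.05 was reached by 15 of the 37 genes (40.5%) and by 10.2% of all probes. These 13 were Ifit3, Gbp5, Oasl, Gbp2, Tap2, Oas1a, Psmb8, Psmb9, Oasl2, Irf1, Irf7, Ifi27 and Ifi35. All but Ifi35 (p = 0.0893) had an exact permutation p of 0.0179, the smallest that the 56 splits of the 8 rats can give.

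**Figure D1:**
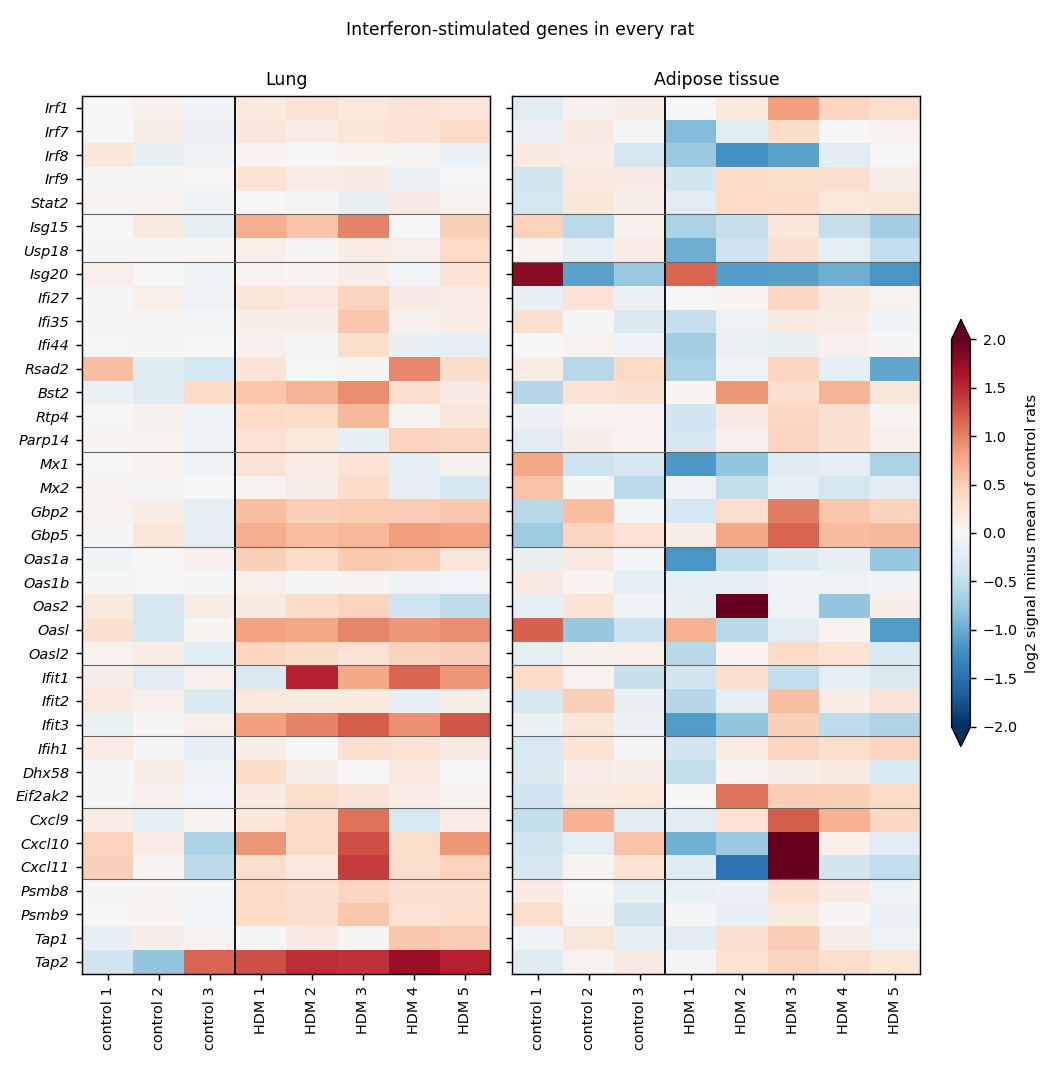
Log2 signal of the 37 genes in each rat, minus the mean of the 3 control rats, in lung (left) and adipose tissue (right); rows are genes grouped by role, columns are rats, red is higher, blue is lower and the color scale ends at 2 and −2. The lung columns of the HDM rats are mostly pale red, with medians of 0.21 to 0.37, whereas the adipose columns are mixed, with HDM rat 3 red and HDM rat 1 blue.

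The IFIT proteins bind foreign RNA and block its translation. The level of Ifit3 in lung was −1.41, −1.25 and −1.18 in control rats 1 to 3 and −0.45, −0.28, −0.07, −0.36 and −0.04 in HDM rats 1 to 5. All HDM rats lay above all control rats by a clear gap. Ifit3 was 2.05-fold higher in HDM rats (log2 difference 1.04, SE 0.13, 95% confidence interval 0.73 to 1.35, adjusted p = 0.0164 in limma). With 1 rat fewer its log2 difference stayed between 0.97 and 1.09, but the adjusted p in limma was 0.0880 without control rat 1, 0.0949 without control rat 2, 0.0589 without control rat 3 and 0.0570 without HDM rat 2. Its neighbour Ifit2 did not follow, with a log2 difference of 0.11 (95% confidence interval −0.24 to 0.46). Ifit1 was well above background on none of the lung arrays, so no fold change is given for it.

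Guanylate-binding proteins and Mx proteins are large GTPases, the former attacking vacuoles of intracellular pathogens and the latter trapping viral capsids. Gbp5, which also promotes inflammasome assembly, had levels of 0.68, 0.96 and 0.52 in control rats and 1.44, 1.34, 1.38, 1.55 and 1.51 in HDM rats. The 5 HDM rats lay close together, above all control rats. Gbp5 was 1.65-fold higher in HDM rats (log2 difference 0.72, SE 0.13, 95% confidence interval 0.44 to 1.01, adjusted p = 0.0496 in limma). It lay just inside the threshold and was no longer past it without any 1 of the 8 rats, with adjusted p in limma of 0.0736 (without HDM rat 3) to 0.203 (without control rat 1). Its neighbour Gbp2 ranged from 3.03 to 3.36 in control rats and from 3.71 to 3.84 in HDM rats, a log2 difference of 0.53 (SE 0.11) that did not pass the fold change or the adjusted p (0.0865 in limma). The Mx genes showed little difference, 0.13 for Mx1 (95% confidence interval −0.18 to 0.43) and 0.01 for Mx2 (−0.38 to 0.39).

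Oligoadenylate synthetases sense double-stranded RNA and activate RNase L. Oasl, a relative of these enzymes, had lung levels of −4.17, −4.82 and −4.43 in control rats and −3.67, −3.70, −3.49, −3.61 and −3.54 in HDM rats. The groups did not overlap, and the log2 difference was 0.87 (SE 0.15) with an adjusted p of 0.0527 in limma, just outside the threshold. It passed the threshold in 5 of 21 settings, with an adjusted p in limma of 0.00508 to 0.483 over all of them and of 0.0690 to 0.169 with 1 rat left out, and its log2 difference fell to 0.21 with normexp background correction. Its neighbour Oasl2 ranged from 0.87 to 1.25 in control rats and from 1.38 to 1.57 in HDM rats (log2 difference 0.40, SE 0.12). Oas1a ranged from 0.94 to 1.12 in control rats and from 1.26 to 1.55 in HDM rats (log2 difference 0.42, SE 0.11), and its second probe gave 0.36. Oas1b, whose promoter window carries the same motif, was the only gene of the 37 below 0, at −0.01 (95% confidence interval −0.23 to 0.21). Oas2 was at 0.02 (−0.60 to 0.64).

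**Figure D2:**
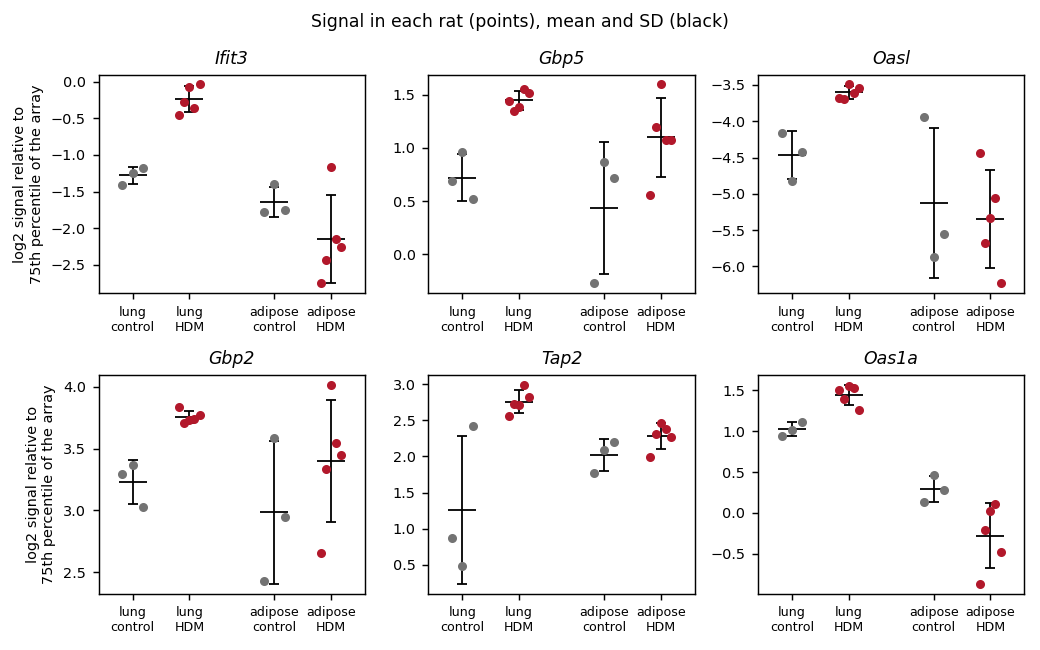
Log2 signal relative to the 75th percentile of the array for 6 genes in each rat (points, gray for control rats and red for HDM rats), with the mean and SD of each group in black, in lung and adipose tissue. In lung the groups do not overlap for any of the 6, and control rat 3 lies close to the HDM rats for Tap2, whereas in adipose tissue the groups overlap for all but Oas1a, which was lower in HDM rats.

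Tap1 and Tap2 carry peptides into the endoplasmic reticulum for loading on MHC class I, and Psmb8 and Psmb9 are subunits of the immunoproteasome that cuts those peptides. Tap2 had the largest difference of the 37 genes, a log2 difference of 1.5 (SE 0.39, 95% confidence interval 0.59 to 2.41), yet it was not differentially expressed (adjusted p = 0.176 in limma). Its levels were 0.87, 0.49 and 2.42 in control rats and 2.56, 2.73, 2.71, 2.99 and 2.82 in HDM rats. Control rat 3 stood with the HDM rats rather than with the other control rats, and the second Tap2 probe gave a like difference of 1.45. Without control rat 3 the log2 difference of Tap2 was 2.08 with an adjusted p of 0.00728 in limma, whereas without control rat 2 it was 1.12. Psmb8 ranged from 3.22 to 3.28 in control rats and from 3.55 to 3.68 in HDM rats (log2 difference 0.35, SE 0.09), and Psmb9 from 3.79 to 3.88 and from 4.13 to 4.40 (0.39, SE 0.10). Both differences were narrow but wider than the spread within either group. Tap1 overlapped, at 0.24 (95% confidence interval −0.16 to 0.64), and its dimmer probe gave 0.48.

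Cxcl9, Cxcl10 and Cxcl11 are the ligands of Cxcr3, a receptor of activated T cells and natural killer cells. Cxcl10 had lung levels of −1.68, −1.99 and −2.76 in control rats and −1.26, −1.78, −0.85, −1.79 and −1.28 in HDM rats. HDM rat 3 was the highest and control rat 3 the lowest, while HDM rats 2 and 4 lay below control rat 1, so the log2 difference of 0.75 (95% confidence interval 0.05 to 1.45) came with overlapping groups. Cxcl11 gave 0.55 (−0.19 to 1.30) and was well above background in only 4 HDM rats and 2 control rats, and Cxcl9 gave 0.31 (−0.34 to 0.96). For all 3 chemokines HDM rat 3 was the highest of the 8 rats in lung. Cxcr3 itself was at −0.54 (95% confidence interval −0.89 to −0.18), with every HDM rat below every control rat, and was not differentially expressed.

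Among the transcription factors, Irf7 amplifies type I interferon production and Irf1 drives the response to interferon gamma. Irf7 had levels of 1.85, 1.98 and 1.75 in control rats and 2.09, 2.00, 2.10, 2.15 and 2.26 in HDM rats. HDM rat 2 lay just above control rat 2, and the log2 difference was 0.26 (SE 0.11). Irf1 ranged from 4.18 to 4.36 in control rats and from 4.47 to 4.56 in HDM rats (log2 difference 0.24, SE 0.09). The remaining factors were near 0, with 0.09 for Irf9, 0.02 for Stat2 and 0.00 for Irf8, a factor of dendritic cell and macrophage development.

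Isg15 is a ubiquitin-like protein joined to others during the response, and Usp18 removes it and damps the receptor. The level of Isg15 was 2.08, 2.28 and 1.89 in control rats and 2.82, 2.65, 3.08, 2.08 and 2.56 in HDM rats. HDM rat 4 lay among the control rats and the other HDM rats above them (log2 difference 0.55, 95% confidence interval 0.05 to 1.06), and Usp18 differed by 0.15 (−0.11 to 0.42). Of the sensors of double-stranded RNA, the kinase Eif2ak2 was 0.03, 0.14 and −0.00 in control rats and 0.23, 0.40, 0.32, 0.20 and 0.13 in HDM rats. Only HDM rat 5 lay below a control rat, and the log2 difference was 0.20 (95% confidence interval −0.04 to 0.44), against 0.19 for the helicase Ifih1 and 0.14 for Dhx58.

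Of the 8 other induced genes, Bst2, which tethers budding viruses to the cell, had the largest difference. Its levels were 3.76, 3.65 and 4.26 in control rats and 4.44, 4.56, 4.82, 4.22 and 4.05 in HDM rats. HDM rats 4 and 5 lay below control rat 3, and the log2 difference was 0.53 (95% confidence interval 0.04 to 1.02). The groups did not overlap for Ifi27, a small membrane protein, at 0.24 (SE 0.11), or for Ifi35, at 0.20 (SE 0.13), where HDM rat 3 was far above the others. The chaperone Rtp4 gave 0.34, the antiviral enzyme Rsad2 0.33, the ADP-ribosyltransferase Parp14 0.24, the exonuclease Isg20 0.10 and Ifi44 0.01.

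**Figure D3:**
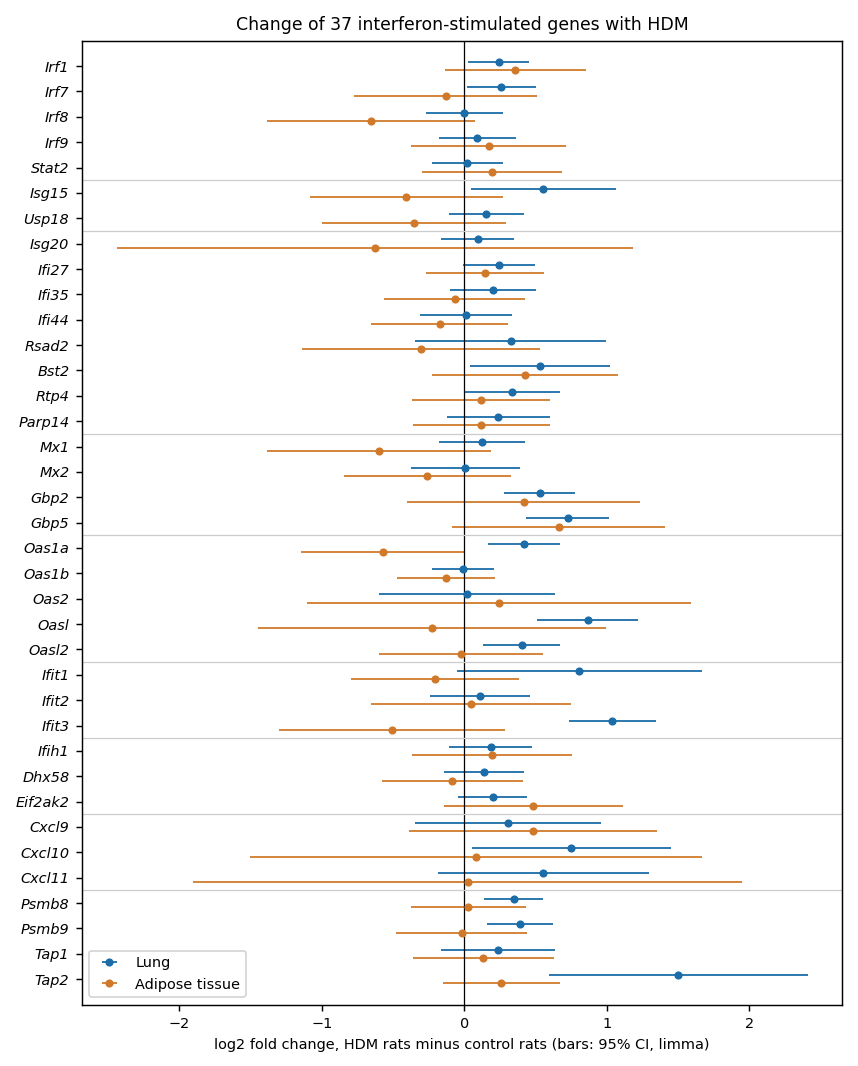
Log2 difference between HDM rats and control rats for the 37 genes in lung (blue) and adipose tissue (orange), with 95% confidence intervals from limma as bars and the genes grouped by role. In lung 15 intervals lie wholly above 0 and none below, with Tap2 (1.5) and Ifit3 (1.04) farthest to the right, whereas in adipose tissue all 37 intervals include 0.

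The spread over rats and the place on the slide were examined for the lung result. Over the 37 genes, the median level relative to the control mean was −0.07 to 0.04 in the 3 control rats and 0.21 to 0.37 in the 5 HDM rats. HDM rat 3 had the highest median (0.37) and was the highest of all 8 rats for 16 of the genes, and without it 32 of 37 genes were higher and the median difference was 0.26. Within row 2 of the slide, where HDM rat 5 can be set against the 3 control rats, the median difference of the 37 genes was 0.25. This rests on 1 HDM rat, and the 13 genes whose groups did not overlap were above 0 there by their choice. Of the other 24 genes 18 were higher in this rat. With the row as a block, the comparison rests on HDM rat 5 against the 3 control rats. The log2 difference was then 1.24 for Ifit3 and 0.79 for Gbp5, and neither was differentially expressed.

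Of the cell markers in the same lungs, those of neutrophils differed most. The 8 neutrophil markers summed to 16.8 to 22.0 times the 75th percentile in control rats and 135 to 283 times in HDM rats, with 7 of 8 higher and 6 differentially expressed, and HDM rat 3 was again the highest. The remaining neutrophil marker, Fpr1, was at −0.66 with all HDM rats below all control rats. The 8 macrophage and monocyte markers summed to 10.3 to 11.4 times and 12.4 to 15.2 times, with 5 of 8 higher and only Itgam differentially expressed. The 12 T and natural killer cell markers summed to 19.5 to 24.7 times and 24.0 to 28.6 times, with 11 of 12 higher and none differentially expressed. The 4 measured B cell markers summed to 4.46 to 4.93 times and 5.10 to 6.37 times, with 2 of 4 higher, and the 5 measured dendritic cell markers to 12.3 to 18.9 times and 14.2 to 17.5 times, with 2 of 5 higher. The 6 lung markers were all lower in HDM rats, at 1358 to 1536 times against 1471 to 1655 times, and for Ager, Cldn18 and Sftpb all HDM rats lay below all control rats. None of these B cell, dendritic cell and lung markers was differentially expressed. Of these lists only Cd209a was dim on every lung array. The part of these cells in the level of the interferon-stimulated genes was not tested.

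Genes of the same pathway that are not among the 39 were described from 3 lists. Of 77 listed genes 61 were measured, 48 were higher in the lungs of HDM rats (median difference 0.20) and 1 was differentially expressed. The groups did not overlap in 15 with HDM rats higher and in 3 with HDM rats lower, against 4.65% and 4.97% of all probes. Of 33 further induced genes 27 were higher, and Samhd1, which depletes the nucleotides that viruses need, was the one differentially expressed. Its levels were −1.12, −0.97 and −1.04 in control rats and 0.19, 0.01, 0.25, −0.17 and −0.30 in HDM rats. All HDM rats lay far above the control rats (log2 difference 1.04, SE 0.15, adjusted p = 0.0259 in limma), but without control rat 1, control rat 2, control rat 3, HDM rat 1 or HDM rat 2 no gene of these lists was differentially expressed. The GTPase Ifi47 followed at 0.55 (SE 0.11) and the nucleotide kinase Cmpk2 at 0.44 (SE 0.10), neither differentially expressed.

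Of 16 measured ligands, receptors and signal transducers 12 were higher in HDM rats and none was differentially expressed (5 at an unadjusted p below 0.05). Small p-values belonged to the receptors Ifnlr1 and Ifnar1 (log2 difference 0.49). Ifnlr1, the type III receptor chain, was well above background in only 2 of the 8 lungs, both of HDM rats. No control lung was above background, so no difference is given for it. The genes of interferon gamma (Ifng) and interferon beta (Ifnb1) were well above background on none of the lung arrays, so their levels could not be compared. Of 12 genes that sense nucleic acids upstream of interferon 9 were higher and none was differentially expressed (5 at an unadjusted p below 0.05, which 10.2% of all probes reached). The nucleic acid sensor Zbp1 differed by 0.47 and the adaptor Myd88 by 0.33, while the adaptor Mavs was at −0.34 with all HDM rats below all control rats.

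The next comparison asks the same of adipose tissue. There the 37 genes showed no common direction, with 19 higher and 18 lower in HDM rats and a median difference of 0.02, but with median scaling 29 were higher and the median difference was 0.32. With either scaling the median of the 37 genes lay 0.18 above the median of all probes. None was differentially expressed, and neither was any of the 45598 probes (0%). None of the 37 had an unadjusted p below 0.05 in limma or in the methods' t-test. In limma 9.9% of all probes did, and 4.77% of the 20540 probes well above background on all adipose arrays. The median over all probes was −0.15, and over those 20540 probes it was 0.03. The groups did not overlap in 1 gene, Oas1a, which was lower in HDM rats, against 6.26% of all probes in either direction and 4.72% with HDM rats lower. Among the 20540 brighter probes, 2.4% did not overlap with HDM rats lower and 3.08% with HDM rats higher. The 95% confidence intervals had a median half-width of 0.59, against 0.30 in lung, so a difference of the size of most of those in lung was not detectable in adipose tissue.

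The differences in adipose tissue ran from −0.65 for Irf8 to 0.66 for Gbp5. Gbp5 was −0.27, 0.86 and 0.72 in control rats and 0.55, 1.20, 1.59, 1.08 and 1.08 in HDM rats. HDM rats 2 to 5 lay above all control rats and HDM rat 1 among them (95% confidence interval −0.08 to 1.41). Irf8 was −2.83, −2.87 and −3.35 in control rats and −3.76, −4.23, −4.09, −3.24 and −3.03 in HDM rats. HDM rats 1 to 3 lay below all control rats (95% confidence interval −1.39 to 0.08).

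Oas1a was 0.14, 0.47 and 0.28 in control rats and −0.87, −0.20, 0.02, 0.11 and −0.47 in HDM rats. All HDM rats lay below all control rats, by a narrow gap between HDM rat 4 and control rat 1 (log2 difference −0.57, SE 0.25, exact permutation p = 0.0536). Ifit3 was −1.77, −1.40 and −1.75 in control rats and −2.75, −2.43, −1.16, −2.15 and −2.25 in HDM rats. Thus 4 HDM rats lay below the control rats and HDM rat 3 above them (log2 difference −0.51, 95% confidence interval −1.30 to 0.28). Isg15 was 1.88, 0.87 and 1.5 in control rats and 0.78, 0.95, 1.64, 0.95 and 0.73 in HDM rats. The groups overlapped (log2 difference −0.41, 95% confidence interval −1.09 to 0.27).

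Isg20, the exonuclease, had levels of 3.04, 0.18 and 0.51 in control rats and 2.42, 0.15, 0.16, 0.27 and 0.09 in HDM rats. Control rat 1 and HDM rat 1, the high rats, are those with the high epididymis and testis markers, whose part in the Isg20 level was not tested. The log2 difference of Isg20 was −0.63 (95% confidence interval −2.44 to 1.18), and 0.27 without control rat 1. Eif2ak2 was −0.59, −0.01 and 0.03 in control rats and −0.20, 0.90, 0.30, 0.29 and 0.20 in HDM rats. Here 4 HDM rats lay above all control rats and HDM rat 1 did not (log2 difference 0.48, 95% confidence interval −0.14 to 1.11).

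Of the chemokines, Cxcl9 was 1.35, 2.52 and 1.60 in control rats and 1.62, 2.11, 3.04, 2.52 and 2.24 in HDM rats. Control rat 2 lay among the HDM rats, and HDM rat 3 was the highest (log2 difference 0.48, 95% confidence interval −0.39 to 1.35). Cxcl10 reached 1.02 in HDM rat 3 against −2.13 to −0.61 in the other 7 rats, and Cxcl11 reached −0.94 against −5.14 to −3.38, with group differences of 0.08 and 0.02. Tap2 was 1.78, 2.09 and 2.20 in control rats and 1.99, 2.31, 2.46, 2.38 and 2.27 in HDM rats. The control rats did not split as in lung (log2 difference 0.26, 95% confidence interval −0.15 to 0.67).

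The remaining genes in adipose tissue all had confidence intervals that included 0. Above 0 were Bst2 (0.43), Gbp2 (0.42), Irf1 (0.36), Oas2 (0.24), Ifih1 (0.19), Stat2 (0.19), Irf9 (0.17), Ifi27 (0.15), Tap1 (0.13), Parp14 (0.12), Rtp4 (0.12), Ifit2 (0.05) and Psmb8 (0.03). Below 0 were Mx1 (−0.60), Usp18 (−0.35), Rsad2 (−0.30), Mx2 (−0.26), Ifi44 (−0.17), Irf7 (−0.13), Oas1b (−0.13), Dhx58 (−0.08), Ifi35 (−0.07), Oasl2 (−0.02) and Psmb9 (−0.02). For Oas2 a single rat, HDM rat 2 at −1.92, was far above the others. The second probe of Tap1 was at −0.54 and that of Irf9 at −0.07, against the sign of the probe used. Second probes of Eif2ak2, Ifi44, Oas1a, Rsad2 (dim on every array) and Tap2 kept the sign. Ifit1 and Oasl were well above background on none of the adipose arrays. Of the 61 other pathway genes measured, 38 were higher in HDM rats (median difference 0.11), none was differentially expressed and in none did the groups stay apart. The smallest p-values in each list belonged to Ido1, Tmem140 (0.68) and Sp100 (0.39) of the further induced genes, to Ifnlr1, Ifnb1 and Ifngr2 (0.45) of the ligands and receptors, and to Irf5 (0.52), Sting1 (0.41) and Myd88 (0.41) of the sensing genes. Ido1 and Ifnb1 were well above background in the adipose tissue of none of the 8 rats and Ifnlr1 in that of 1 control rat, so no difference is given for them. The neutrophil markers summed to 3.18 to 5.4 times the 75th percentile in control rats and 7.78 to 14.4 times in HDM rats, with 7 of 8 higher and none differentially expressed. The macrophage and monocyte markers summed to 8.07 to 20.4 times and 11.2 to 34.3 times, and those of T and natural killer cells to 3.41 to 4.92 times and 2.90 to 4.42 times. HDM rat 3 had the highest neutrophil sum in this tissue as well, and the part of these cells was not tested.

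In adipose tissue the HDM rats spread to both sides of the control rats. Relative to the control mean, the median over the 37 genes was −0.33 in HDM rat 1, which was the lowest of the 8 rats for 15 genes, and 0.36 in HDM rat 3, which was the highest for 19. The other 6 rats lay between −0.16 and 0.12. Without HDM rat 3, 15 of 37 genes were higher and the median difference was −0.13. Without control rat 1 and HDM rat 1, 23 of 37 were higher and none was differentially expressed. The groups of 4 and 2 rats then stayed apart in 5 genes. These were Gbp5, Irf1, Eif2ak2 and Tap2 with HDM rats higher and Oas1a with HDM rats lower. Before the arrays were scaled, the groups of these rats stayed apart in 7.74% of all probes. HDM rats were higher in 2.95% and lower in 4.79%. The 5 genes were counted after scaling, so whether their count exceeds that of other genes is not known. By the median over the 37 genes HDM rat 3 was the highest in both tissues. HDM rat 1 was the lowest in adipose tissue, whereas in lung its 0.27 lay within the 0.21 to 0.37 of the HDM rats.

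**Figure D4:**
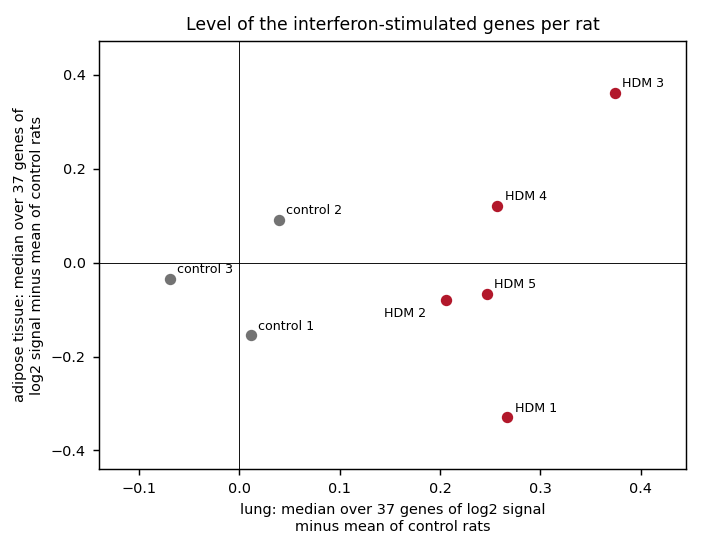
Median over the 37 genes of the log2 signal minus the mean of the control rats, in lung (horizontal axis) and adipose tissue (vertical axis), with 1 point per rat, gray for control rats and red for HDM rats. All 5 HDM rats lie to the right of the 3 control rats, and on the vertical axis they spread from −0.33 to 0.36 on both sides of them.

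A further comparison asks whether the change in lung differed from that in adipose tissue, from the difference between the tissues of each rat. In this test 0 of the 37 genes passed an adjusted p of 0.05 in limma, with 5 of them at an unadjusted p below 0.05, against 1 of all probes past the adjusted p (0.00219%) and 7.74% at the unadjusted p. The count of 5 was 1 with median scaling, 3 without control rat 1 and 4 to 6 without any 1 of the other rats. The 5 genes were Ifit3, Oas1a, Tap2, Isg15 and Ifit1, all with the higher difference in lung, and Ifit1 was dim in both tissues. For Ifit3 the lung difference exceeded that in adipose tissue by 1.55 (SE 0.31, adjusted p = 0.340 in limma). The same quantity was 1.24 (SE 0.38) for Tap2, 1.00 (SE 0.26) for Oas1a and 0.96 (SE 0.34) for Isg15. By sign alone, 19 genes were higher with HDM in both tissues, 17 were higher in lung and lower in adipose tissue, and Oas1b was lower in both.

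Without allergen some of these genes already differed between the arrays of the 2 tissues. Each tissue had its own slide, so a difference between tissues cannot be told apart from one between slides. In control rats 8 of the 37 genes were differentially expressed with lung higher, against 12% of all probes, and 2 with adipose tissue higher, against 32.2%, of which 1 (Ifit1) was dim in both tissues. The median of lung minus adipose tissue was −0.58 over all probes and 0.28 over the 37 genes. Quantile normalization moved the median over all probes to −0.06 and median scaling to −0.33, and the 8 genes stayed differentially expressed with lung higher under both. The balance of all probes moved as well, from 5485 higher in lung and 14698 higher in adipose tissue to 6204 and 5745 with quantile normalization. They were Oasl2, which was 3.22-fold higher in lung (log2 difference 1.69, SE 0.24, adjusted p = 0.00142 in limma), Tap1 (1.28), Bst2 (1.10), Usp18 (1.03), Irf1 (0.99), Rtp4 (0.80), Dhx58 (0.77) and Oas1a (0.73). Without control rat 1, Bst2, Dhx58, Oas1a and Rtp4 were no longer differentially expressed (adjusted p in limma 0.0627 to 0.0997). Without control rat 2 this held for Dhx58, Oas1a, Rtp4 and Usp18 (0.0556 to 0.0768), and without control rat 3 for Oas1a (0.0819).

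Cxcl9 was 10.1-fold higher in adipose tissue than in lung of control rats (log2 difference −3.34, SE 0.34, adjusted p = 0.00033 in limma). Its levels were −1.37, −1.70 and −1.47 in the lungs of the 3 control rats and 1.35, 2.52 and 1.60 in their adipose tissue. The tissues did not overlap for Cxcl9, nor did they when HDM rats were included, whose lungs lay between −1.82 and −0.43 and whose adipose tissue lay between 1.62 and 3.04. Cxcl10 (−0.97) and Cxcl11 (−1.44) pointed the same way without passing the threshold. Ifit1 passed the threshold from readings near background, and with quantile normalization it did not pass, so no difference is given for it.

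**Figure D5:**
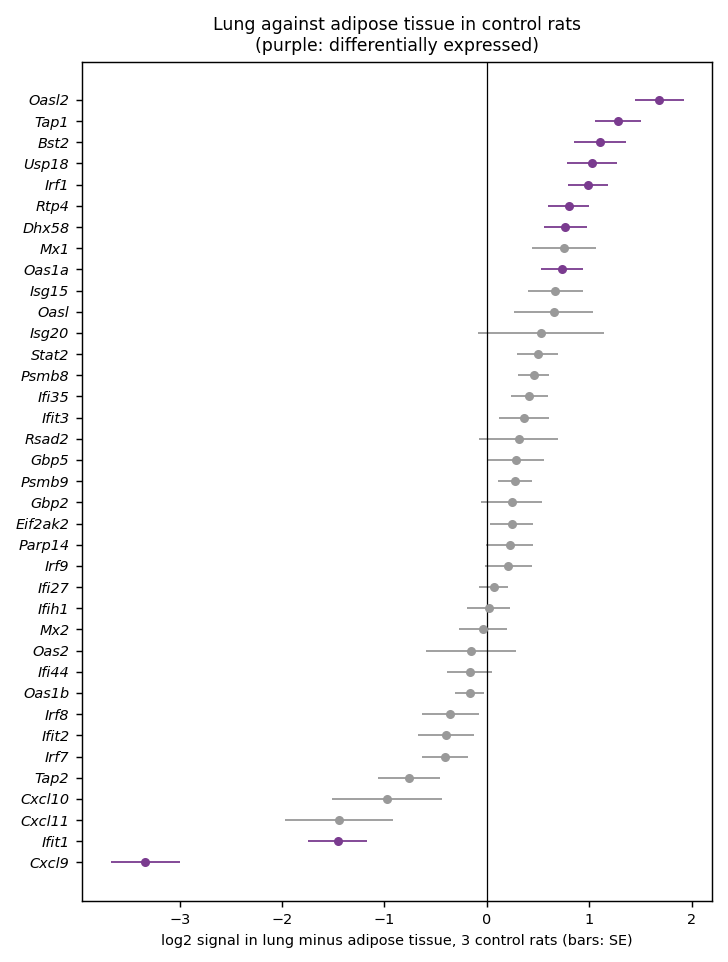
Log2 signal in lung minus log2 signal in adipose tissue in the 3 control rats for the 37 genes, in order of the difference, with the standard error as bars and differentially expressed genes in purple. The 8 purple genes on the right (0.73 to 1.69) were higher in lung and Cxcl9 (−3.34) was higher in adipose tissue, whereas Ifit1, also purple, was dim on every array of control rats in both tissues. Each tissue had its own slide, so tissue and slide cannot be told apart.

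The shares of genes with the response element lay close together whether or not their groups overlapped in lung, a description with no test. Of the 13 genes whose groups did not overlap in lung, 9 (69.2%) held the core of the response element, and Oasl, Psmb9, Irf1 and Ifi35 did not. Of the other 16 measured genes with a window, 10 (62.5%) held it. Among the windows printed above, Ifit3 and Oas1a differed by 1.04 and 0.42 in lung, whereas Oas1b differed by −0.01 and Cxcl10, with overlapping groups, by 0.75.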

How the data were processed

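Lung and adipose RNA of 5 HDM rats and 3 control rats was hybridized on 16 arrays of 1 color (Cy3). The authors deposited spot intensity values from Agilent Feature Extraction 12.0.3.1, on a linear scale with background subtracted and no normalization between arrays, and a log2 value table made in GeneSpring. Scale and centering of the deposited log2 values are not given in the sources used here. They lay within 0.1 of the values computed here, centered on each probe's median within its tissue, for 100% of lung cells and 99.9% of adipose cells, which settles scale and direction. Their array medians ran from −0.104 to 0.163 in lung and from −0.0778 to 0.315 in adipose tissue, and 39 cells held no number.

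Control spots and outlier spots were removed, spots of a probe were averaged as log2 intensity, and each array was scaled by its 75th percentile. Within a tissue, limma 3.58.1 (R 4.3.3) was fitted to all 45598 probes for HDM rats against control rats, with Benjamini–Hochberg adjustment. Exact two-sided permutation over the 56 splits was added for single genes. The tissues were compared by subtracting adipose tissue from lung within each rat. The code was tested on simulated data. Figures were drawn with Python 3.11.15 and matplotlib 3.10.9.

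Symbols came from RefSeq accessions on the array, matched to 47357 rat genes of GRCr8, which named 21229 probes. The interferon-stimulated genes and all lists were chosen with earlier results of these data known, so none is independent evidence. Values in every rat are given for genes past the threshold in a comparison of HDM rats with control rats, and for the gene of each role with the largest difference in a tissue among those well above background. Cxcl9 in control rats, Cxcr3, Cxcl10 and Cxcl11 in adipose tissue, and genes named because their groups did not overlap were added after their values were seen. Of the pathway lists, genes past the threshold and up to 3 per list with the smallest p are named, apart from 1 that is not reported here. Lists for skeletal muscle (6 genes measured) and erythrocytes (5) held no differentially expressed gene in either tissue.

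The alternatives were the t-test of the study's methods, adjustment over probes past 1.5-fold, other scalings (quantile, median, percentile of bright probes, Gapdh and Hprt1), normexp background correction (offset 50) with quantile normalization, the deposited values, removal of dim probes, array weights, each rat left out, blocks for replicate number and slide row, and averaging over probes of a symbol. The number of arrays limits the precision, and the p-values measure the spread between these rats only.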

Additional observations from a re-analysis of the deposited data

Results flagged for a closer look

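In 6 of the 74 groups of HDM rats examined (37 genes in 2 tissues), 1 rat lay far from the other 4, by a gap that Dixon's rule allows in about 1 of 20 groups by chance. In lung, HDM rat 3 stood above the others for Cxcl11 (−3.71 against −4.90 to −4.63) and for Ifi35 (1.72 against 1.26 to 1.32). HDM rat 4 stood below them for Ifit2 (−0.38 against −0.10 to 0.00), and HDM rat 5 for Irf8 (−3.49 against −3.37 to −3.33). In adipose tissue, HDM rat 3 stood above the others for Isg15 (1.64 against 0.73 to 0.95) and HDM rat 1 for Isg20 (2.42 against 0.09 to 0.27). All values are log2 signals relative to the 75th percentile of the array.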

How the results depend on the processing

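No differentially expressed interferon-stimulated gene changed direction, but among the others the difference crossed 0 under at least 1 alternative for 9 genes in lung, 19 in adipose tissue and 8 between the tissues of control rats. In lung 390 probes were differentially expressed, and this count was 1329 when p-values were adjusted over probes past 1.5-fold, 341 with the methods' t-test, 751 with dim probes left out, 705 with array weights, 25 with the slide row as a block and 100 to 333 with 1 rat left out. The 2 interferon-stimulated genes became 4 with adjustment over probes past 1.5-fold. They became 3, with Oasl added, with quantile normalization, the percentile of bright probes, dim probes left out or the mean over probes of a symbol. The count was 1 with median scaling, with Gapdh and Hprt1 scaling or with the deposited log2 table, and 0 to 1 with 1 rat left out. With median scaling 8 interferon-stimulated genes instead of 13 did not overlap. Of the pathway lists, 3 genes passed with adjustment over probes past 1.5-fold, 2 with array weights or the mean over probes of a symbol, 0 with the slide row as a block and 0 to 1 with 1 rat left out. Whether the replicate numbers pair HDM rats with control rats is not given in the labels, and correlations cannot decide it. Same-numbered rats deviated in lung with correlations of −0.06, −0.08 and 0.05, and in adipose tissue of 0.59, 0.14 and 0.10. The value of 0.59 belongs to control rat 1 and HDM rat 1, both with high epididymis and testis markers. With the replicate block, 0 probes, 0 interferon-stimulated genes and 0 pathway genes were differentially expressed in lung (Ifit3 adjusted p = 0.310 and Gbp5 0.325 in limma). In adipose tissue 28 probes passed with adjustment over probes past 1.5-fold, 7 with quantile normalization, 3 with median scaling or the mean over probes of a symbol, 5 with dim probes left out, 338 with array weights, 1 with normexp or with the slide row as a block, and no interferon-stimulated gene did under any alternative. The groups stayed apart there in 2 genes with quantile normalization, 0 with median scaling, 1 to 5 with 1 rat left out and 5 without control rat 1 and HDM rat 1, a setting chosen after seeing the data. Shares of all probes on the same scale are not given for these counts, so they are not read as results about these genes. With median scaling 29 genes were higher in adipose tissue, with a median difference of 0.32 and a mean of 0.27. That median lay 0.18 above the median of all probes, as it did with the main scaling. The change differed between tissues in 20 probes when the lung and adipose arrays of a rat were treated as if from different rats. It differed in 2 probes with quantile normalization or median scaling, 8 with dim probes left out and 0 to 1 with 1 rat left out. Between the tissues of control rats 11950 probes differed with quantile normalization and 12310 with dim probes left out, and 6 to 11 interferon-stimulated genes with 1 rat left out. Array signal over background limited Ifit1 in both tissues and Oasl in adipose tissue. The causes of these shifts were not tested.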
